A study of Mus musculus with 2 samples.

Results

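Genes of the Pax, Lhx, Dlx, Irx, Emx, Otx, Meis, Pbx, Msx, Gbx, Nkx and Pou families, and Six2 and its relatives, were examined for chromatin loops in the mouse cerebral cortex after stroke. All are called homeobox genes here by family name, and whether each one encodes a homeodomain was not checked. They were taken by symbol from the autosomal protein-coding genes of RefSeq on GRCm38.p6 (the assembly of mm10), which gave 79 of 20665 genes; 1 further match lies on the X chromosome and was left out. A loop was assigned to a gene when an anchor lay within 2.5 kb of either end of the gene. By this rule 64 of the 14779 sham loops and 88 of the 15592 MCAO loops belonged to these genes. Every listed loop has a pair of anchors and a number of paired-end tags (PETs, read pairs that join both anchors) that support it, at least 10 in all cases.

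The lists come from Hi-C, which ligates and sequences DNA segments that lie close together in the nucleus. MCAO stands for mice whose middle cerebral artery was closed with a filament for 1 h and which then had 6 h of reperfusion. Sham mice went through the same surgery with no filament advanced and the same recovery time. Tissue was cortex from the operated side, and the labels used here give no strain, age or sex. The labels name 3 cortices per group, whether they were pooled is not stated, and 1 loop list per group was analysed. No difference between sham and MCAO therefore has a replicate check, no test between them was possible, and all intervals are 95% intervals for counting error only. Loop lists hold no expression values, so the tissue label could not be checked against marker genes. Cortex is a mixture of cells, so fewer cells with a contact and fewer contacts per cell cannot be told apart. Depth was 34974213 PETs for sham and 40550536 PETs for MCAO (ratio 1.16).

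Homeodomain proteins bind short AT-rich sequences and set the identity of regions and cell types in the embryo. Many of their genes stand alone in wide stretches of DNA with few other genes, where distant enhancers act on them through chromatin contacts. In cells that do not use them, such genes are often held silent by Polycomb complexes, which can also bring silent genes together in the nucleus. In the forebrain, members of these families pattern the cortex, specify interneurons and mark layers of cortical neurons.

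At least 1 loop in either list was found at 49 of the 79 genes (62.0%), beside 63.7% of all autosomal protein-coding genes. In sham 35 genes (44.3%) had a loop, beside 44.5% of all genes. In MCAO 41 genes (51.9%) had one, beside 49.6%. Loops stood in both lists for 27 genes (background 30.4%), in the sham list alone for 8 (10.1%, background 14.0%) and in the MCAO list alone for 14 (17.7%, background 19.2%). Among the 49 genes with a loop, 30 (61.2%) had more in MCAO and 11 (22.4%) had more in sham, beside 46.7% and 33.4% of all genes with a loop, and 8 had equal numbers. No gene differed by 3 or more loops in either direction, beside 5.00% of all genes with a loop for MCAO and 2.19% for sham. The loops of 16 of the 49 (32.7%) numbered at least 4 in both lists together, beside 21.8% of all genes with a loop. The share of these genes with a loop was thus close to the background, while genes with several loops made up a larger share than in the background.

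**Figure D1:**
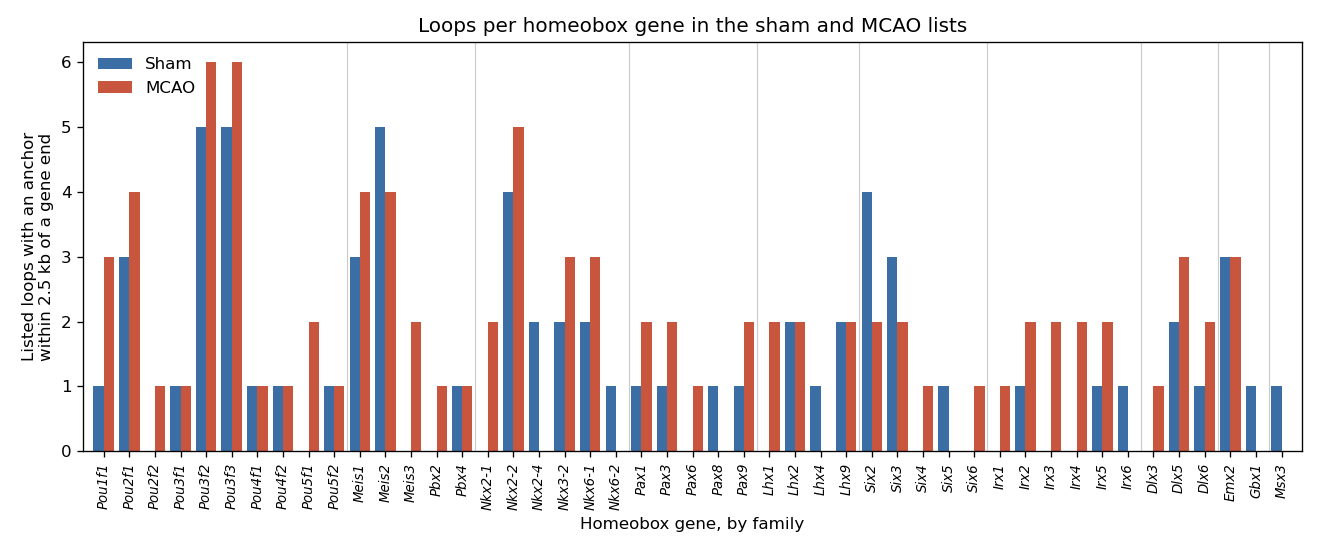
Loops per gene in the sham list and the MCAO list for homeobox genes with a loop, grouped by family; the axis gives the number of loops whose anchor lies within 2.5 kb of a gene end. Pou3f2 and Pou3f3 stand highest with 5 sham and 6 MCAO loops each, and no gene differs by 3 or more.

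The ratio of loops at these genes, MCAO over sham, was 1.38 (0.985 to 1.93), and that of all loops at autosomal gene ends was 1.24 (1.2 to 1.27). With the MCAO minimum raised to 12 PETs to match depth, the counts were 64 and 66, a ratio of 1.03 (0.72 to 1.48), beside 0.829 for all gene-end loops. The interval of the homeobox ratio held 1 in both cases. It excluded 1 with a window of 10 kb at gene ends (1.37, 1.01 to 1.86) and with no window (1.45, 1.02 to 2.06). Both of these intervals, and that of the main ratio, held the depth ratio of 1.16 and the ratio of 1.24 for all gene-end loops. The ratio of 1.24 was computed with the window of the main ratio alone. With 10 kb and with no window, the homeobox ratios therefore have no background of their own. All 3 homeobox ratios (1.38, 1.37 and 1.45) lay above 1.24, with wide counting intervals that held it. An excess at the homeobox genes beyond that of all gene-end loops was thus neither shown nor excluded.

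Loops at the homeobox genes were long. Sham loops had a median span of 512 kb (all gene-end loops 359 kb), and MCAO loops one of 547 kb (290 kb). Spans ran from 65.6 kb to 2.19 Mb in sham and from 58.5 kb to 2.07 Mb in MCAO. More than 1 Mb was spanned by 10 of 64 sham loops (15.6%, 7.76 to 26.9) and 15 of 88 MCAO loops (17.0%, 9.87 to 26.6), beside 11.3% and 8.77% of all gene-end loops. They also held more PETs, with a median of 17 in sham and 18 in MCAO, beside 13 and 14. At least 30 PETs supported 31.2% of the homeobox loops in sham and 19.3% in MCAO, beside 11.3% and 10.9% of the other gene-end loops. Their anchors were wider, at a median of 37.2 kb and 35.5 kb beside 25.1 kb and 20.1 kb.

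The neighbourhoods of these genes held few other genes. A window of 1 Mb centred on the gene held a median of 8 other protein-coding genes, beside 16 for all genes. Among genes with 8 or fewer such neighbours, the 32 homeobox genes with a loop (72.7% of 44) stood beside 77.0% of the other genes. In this gene-poor group the median span of homeobox loops was 559 kb in sham and 620 kb in MCAO, beside 492 kb and 439 kb for the other genes. In the denser group, 17 of 35 homeobox genes (48.6%) had a loop, beside 59.0% of the others, and median spans were 466 kb and 281 kb beside 238 kb and 187 kb. Longer median spans thus stood within both gene-density groups, but the denser group held only 9 sham and 17 MCAO homeobox loops. Of these, 0 spanned more than 1 Mb, beside 4.59% and 3.64% of loops at the other genes. In the gene-poor group these shares were 18.2% in sham and 21.1% in MCAO, beside 16.4% and 13.6%.

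**Figure D2:**
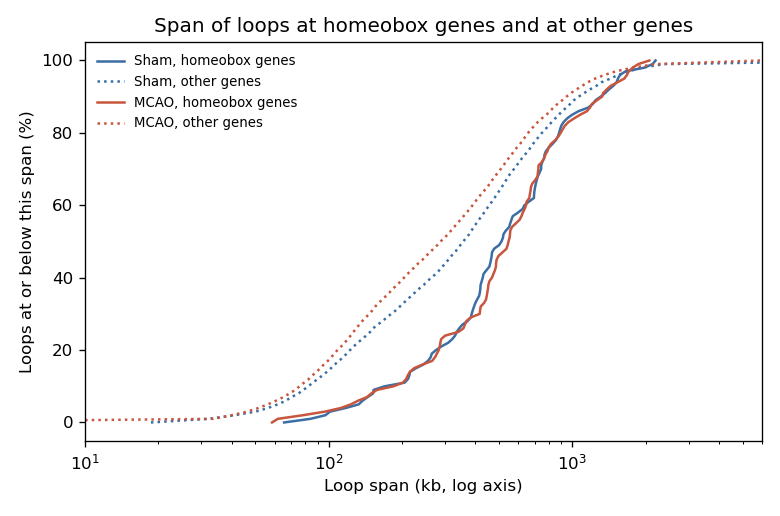
Cumulative share of loops (percent) at or below each span (kb, log axis), for homeobox genes (solid lines) and other genes (dotted lines) in sham and in MCAO. Both solid lines lie to the right of the dotted lines over most of the range, with medians of 512 kb in sham and 547 kb in MCAO.

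Promoter sequences are printed for some of the genes that the results turn on, those joined to another homeobox gene by a loop and those with the strongest or the most loops. Each line gives the 250 bases upstream of the RefSeq start on GRCm38.p6, written 5′ to 3′ on the gene's strand, with CG dinucleotides (the targets of DNA methylation) in capitals. Irx2 (chr13:72628570-72628819 on the plus strand) and Irx4 (chr13:73260247-73260496 on the plus strand) were joined by an MCAO loop. Nkx6-2 (chr7:139582798-139583047 on the minus strand) and Msx3 (chr7:140049089-140049338 on the minus strand) were joined by a sham loop. Emx2 (chr19:59458440-59458689 on the plus strand) had the strongest homeobox loop of each list, and Pou3f3 (chr1:42695518-42695767 on the plus strand) shared with Pou3f2 the highest number of loops.
Irx2: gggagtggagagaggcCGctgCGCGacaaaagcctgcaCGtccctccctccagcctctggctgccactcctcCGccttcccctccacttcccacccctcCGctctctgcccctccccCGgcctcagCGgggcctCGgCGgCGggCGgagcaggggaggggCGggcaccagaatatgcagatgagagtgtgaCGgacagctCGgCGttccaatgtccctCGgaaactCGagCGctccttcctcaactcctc
Irx4: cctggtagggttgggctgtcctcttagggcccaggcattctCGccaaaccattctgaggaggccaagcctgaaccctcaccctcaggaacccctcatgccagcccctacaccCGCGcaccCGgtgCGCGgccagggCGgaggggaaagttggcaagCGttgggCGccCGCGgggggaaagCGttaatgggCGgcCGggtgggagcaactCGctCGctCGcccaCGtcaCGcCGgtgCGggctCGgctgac
Nkx6-2: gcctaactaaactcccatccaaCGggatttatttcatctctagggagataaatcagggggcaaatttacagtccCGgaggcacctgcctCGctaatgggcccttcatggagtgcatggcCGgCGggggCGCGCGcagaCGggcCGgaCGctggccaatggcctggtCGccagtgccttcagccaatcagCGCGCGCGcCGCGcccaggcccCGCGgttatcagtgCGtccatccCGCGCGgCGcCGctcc
Msx3: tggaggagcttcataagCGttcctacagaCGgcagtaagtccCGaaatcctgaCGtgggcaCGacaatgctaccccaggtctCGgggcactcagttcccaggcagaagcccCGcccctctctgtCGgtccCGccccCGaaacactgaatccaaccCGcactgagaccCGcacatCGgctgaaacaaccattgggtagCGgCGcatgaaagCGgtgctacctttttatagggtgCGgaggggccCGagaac
Emx2: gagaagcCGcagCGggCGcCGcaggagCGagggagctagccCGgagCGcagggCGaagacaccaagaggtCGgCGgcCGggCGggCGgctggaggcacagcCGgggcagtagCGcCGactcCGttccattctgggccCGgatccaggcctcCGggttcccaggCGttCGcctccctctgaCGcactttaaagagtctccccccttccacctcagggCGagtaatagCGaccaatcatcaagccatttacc
Pou3f3: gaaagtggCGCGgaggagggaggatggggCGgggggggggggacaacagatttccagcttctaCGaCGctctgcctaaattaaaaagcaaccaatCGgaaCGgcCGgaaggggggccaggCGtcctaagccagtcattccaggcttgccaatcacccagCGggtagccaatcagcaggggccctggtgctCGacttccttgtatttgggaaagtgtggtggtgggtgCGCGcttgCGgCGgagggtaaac

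These windows hold 19, 22, 26, 18, 24 and 15 CG dinucleotides in the order printed. Those of Irx3 and Pou3f2, which are not printed, hold 13 and 18, and Irx5 and Irx6 had no promoter in the table used. Over the 57 of 79 homeobox genes with a RefSeq promoter in the table used, the median was 15 (quartiles 10 and 22), beside 10 (quartiles 3 and 19) over 16457 genes. CG number did not separate genes with a loop (median 15, n = 38) from genes without one (median 16, n = 19). The homeodomain core TAATTA, searched on both strands, lay in 2 of the 57 windows (3.51%), beside 4.40% of all windows. The Meis core TGACAG lay in 10 (17.5%), beside 15.1%, and the POU octamer ATGCAAAT in 0, beside 1.63%. The core motif of the insulator protein CTCF, searched as a long and nearly fixed string, also lay in 0 windows, beside 0.0304% of all. A string this rare cannot show a difference in 57 windows. Variants of the motif were not searched, so whether these promoters hold CTCF sites was not tested. None of the motifs searched occurs in the 6 sequences above. The annotated start itself lay in or within 2.5 kb of the anchor in 42 of 58 gene and loop combinations in sham (72.4%) and in 65 of 76 in MCAO (85.5%), including all 3 loops of Irx2, all 6 of Emx2 and all 11 of Pou3f3.

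Loops that join homeobox genes numbered 2 in sham and 3 in MCAO, and none had a partner in the other list. In sham, Irx5 and Irx6, Iroquois factors that prepattern embryonic tissue, were joined over 313 kb by 26 PETs. The other sham loop joined Nkx6-2, a factor of oligodendrocytes and ventral neural progenitors, with Msx3, a factor of the dorsal neural tube, over 466 kb by 16 PETs. Its anchors also held gene ends of Cfap46 and Inpp5a on the Nkx6-2 side, and of Caly, Tubgcp2 and Zfp511 on the Msx3 side.

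In MCAO, Irx2 and Irx4 were joined over 620 kb by 10 PETs, and Irx3 and Irx5 over 555 kb by 11 PETs. Both lay at or just above the minimum of 10 PETs, so a loop that is listed once can lie just below the minimum in the other library. Of 25 pairs of these genes within 2 Mb on a chromosome, 20 were at least 50 kb apart. Of the 25, 5 were joined in a list and 0 in both. Other gene pairs at like distances were not counted, so whether these numbers are particular to homeobox genes was not tested. At the depth-matched minimum the 2 sham loops were left and no MCAO loop.

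Loops inside a single gene were also listed. At Meis1 both ends of the gene were joined in both lists, over 139 kb by 25 PETs in sham and over 143 kb by 16 PETs in MCAO. Both ends of Meis2 were joined over 209 kb by 22 PETs in sham, and no partner loop was listed in MCAO. Meis1 and Meis2 encode TALE homeodomain cofactors, which bind DNA together with Pbx and Hox proteins.

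The POU genes held the most loops of any family here, 18 in sham and 26 in MCAO, at 10 of 14 genes. POU proteins join a homeodomain to a POU-specific domain. Pou3f2 and Pou3f3 (Brn2 and Brn1) act in neural progenitors and upper-layer cortical neurons. Pou3f2 (chromosome 4, 22482095 to 22488366) had 5 sham loops of 10, 11, 12, 27 and 34 PETs and 6 MCAO loops of 10, 17, 22, 26, 28 and 47 PETs. All but 1 ran in the same direction, into a region with few gene ends. The longest shared contact spanned 2099 kb with 27 PETs in sham and 2070 kb with 28 in MCAO, with its far anchor in the body of Mms22l. The longest of all was a sham loop of 2194 kb with 11 PETs that ended in the body of Klhl32. The sham loop to Faxc, over 469 kb with 12 PETs, was the loop in the opposite direction. MCAO loops of 1744 kb (26 PETs), 1676 kb (10 PETs) and 1010 kb (17 PETs) had no partner in sham.

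Pou3f3 (chromosome 1, 42695768 to 42700210) had sham loops of 16, 17, 18, 44 and 51 PETs and MCAO loops of 15, 18, 23, 24, 55 and 82 PETs. All 11 ran in the same direction. The far anchors lay without a protein-coding gene end in all but 1, an MCAO loop of 1832 kb with 23 PETs to Tmem182. The contact at 432 kb in sham and 421 kb in MCAO had 16 and 55 PETs, and the one at 890 kb and 903 kb had 51 and 82. The MCAO loop of 82 PETs also lay within 1 anchor width of the sham loop of 44 PETs. The difference in loop number, MCAO minus sham, was 1 for Pou3f2 and for Pou3f3, with a counting interval of -5.86 to 7.32 for each.

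**Figure D3:**
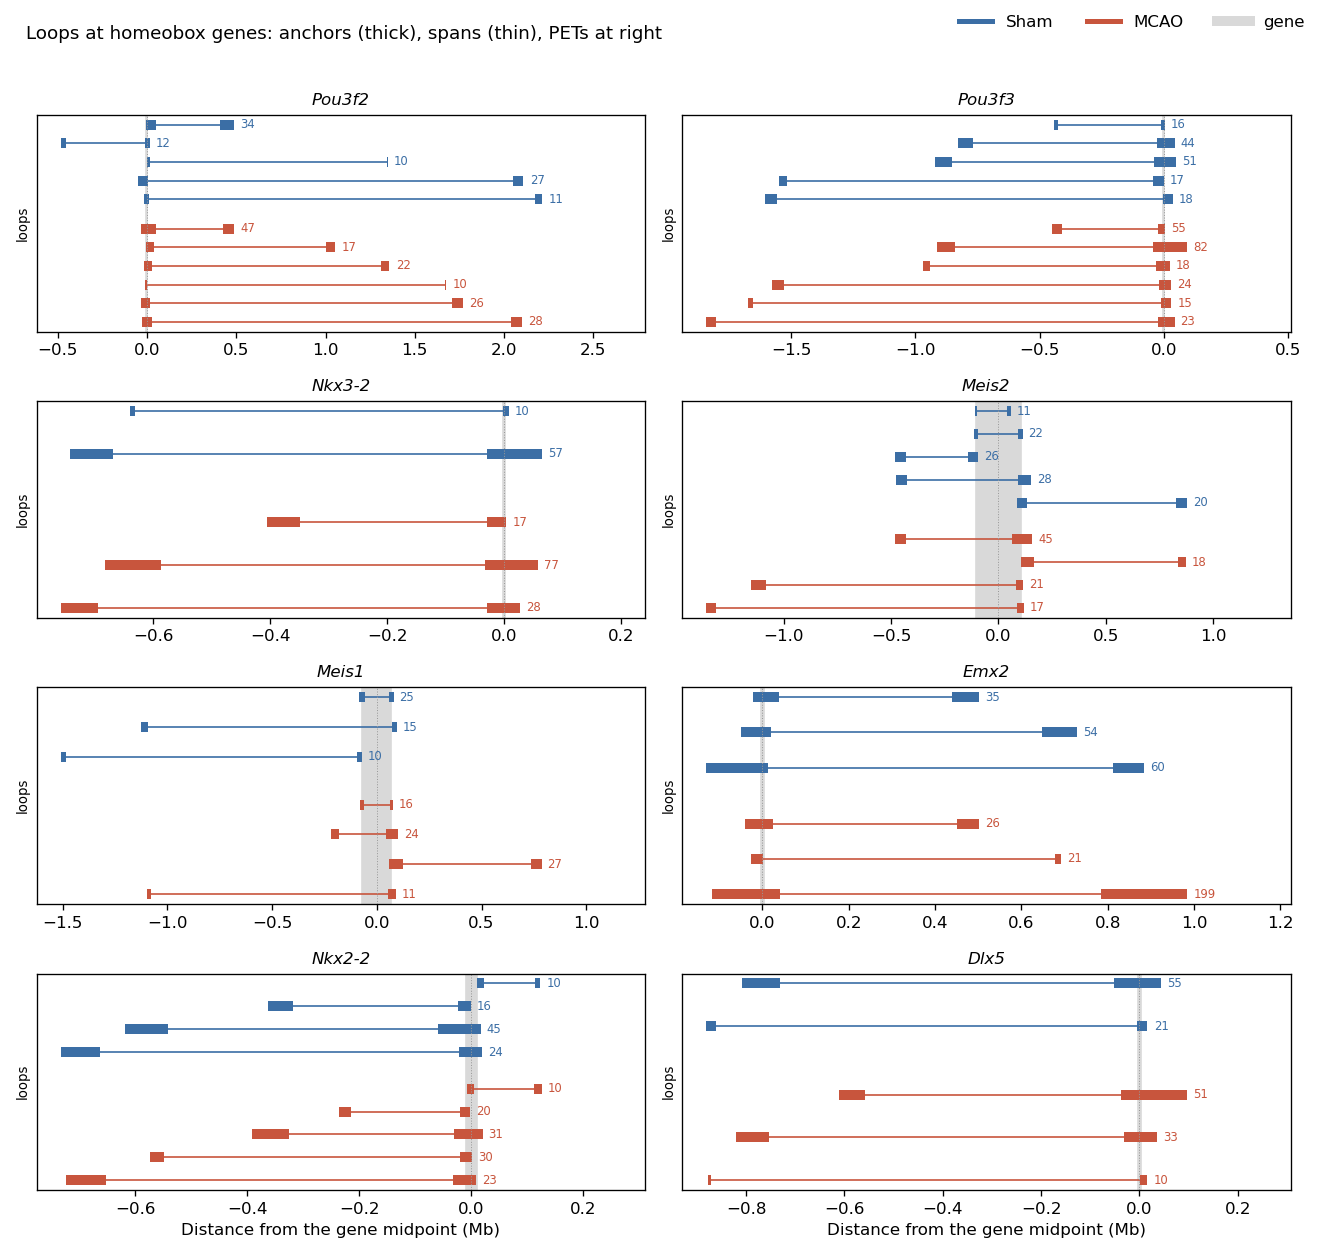
Loops at 8 homeobox genes, with anchors as thick bars, spans as thin lines and the PETs at the right; the horizontal axis is the distance from the gene's midpoint in Mb along the chromosome, and sham and MCAO have colours of their own. All loops of Pou3f3 run to lower coordinates and all loops of Emx2 to higher ones in both lists.

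Other POU genes had fewer loops. Pou2f1 (Oct1), which is expressed in most tissues, had 3 loops in sham and 4 in MCAO, none of them shared. Its strongest was a sham loop of 393 kb with 35 PETs to Tada1 and Pogk. Pou3f1 (Oct6), known from myelinating Schwann cells, had 1 sham loop of 770 kb with 55 PETs to Mycbp and Rragc and 1 MCAO loop of 439 kb with 17 PETs. The near anchor of this sham loop also held Fhl3, Inpp5b, Sf3a3 and Utp11. Its partner in MCAO was a loop of 13 PETs that did not lie at a homeobox gene end. Pou1f1, the pituitary factor, shared an anchor with Chmp2b and had 1 sham and 3 MCAO loops. An MCAO loop of 590 kb with 95 PETs joined it to Htr1f, a serotonin receptor gene; a sham loop of 11 PETs lay within 1 anchor width but not at a homeobox gene end. The sham loop of 58 PETs to Zfp654 and 4930453N24Rik had 21 PETs in MCAO. Pou4f1 (Brn3a), a sensory neuron factor whose anchor also held Obi1, had 39 PETs over 420 kb in sham and 13 over 416 kb in MCAO. Pou2f3, Pou4f3 and Pou6f1 were among the POU genes with no listed loop.

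Meis and Pbx genes, which encode the TALE partners of other homeodomain proteins, had 13 sham and 17 MCAO loops at 6 of 7 genes. Meis2 had 5 sham loops of 11 to 28 PETs and 4 MCAO loops of 17 to 45 PETs. Its MCAO loops of 1213 kb (21 PETs) and 1441 kb (17 PETs) had no sham partner. Meis1 had 3 sham loops of 10, 15 and 25 PETs and 4 MCAO loops of 11, 16, 24 and 27 PETs. Meis3 had loops in MCAO alone, of 667 kb with 21 PETs to Strn4 and of 726 kb with 14 PETs to Dact3, Gng8 and Prkd2, and its anchor also held Slc8a2. Pbx3 had none.

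Emx2 patterns the areas of the developing cortex. It (chromosome 19, 59458690 to 59465357) had 3 loops in each list, all shared, with 35, 54 and 60 PETs in sham and 26, 21 and 199 PETs in MCAO for the same contacts. The contact of 906 kb in sham and 922 kb in MCAO, whose near anchor also held Pdzd8, was the strongest homeobox loop in both lists, and its 199 PETs ranked 3 in the whole MCAO list, where the most was 238. Scaled to 1000000 PETs of each library (scaled PETs), it was 2.86-fold higher in MCAO (2.13 to 3.88), with summed anchors of 216 kb and 356 kb. The contact of 703 kb and 698 kb stood at 0.335-fold (0.192 to 0.565), with summed anchors of 152 kb and 42.5 kb. The MCAO loop of 199 PETs also lay within 1 anchor width of the sham loop of 54 PETs, against which it stood at 3.18-fold (2.34 to 4.38). A further sham loop of 12 PETs, not at a homeobox gene end, lay within that distance too. Against that loop it stood at 14.3-fold (8.01 to 28.1), so the fold depends on the pairing. The third contact, to Rab11fip2, stood at 0.641-fold. The PETs of Emx2 contacts thus differed in both directions, and each time the wider anchors held more PETs. No loop was listed at Emx1, Otx1 and Otx2.

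Dlx genes direct the development of forebrain interneurons and lie in pairs. Loops were listed at 3 of 6 Dlx genes. Dlx5 had 2 sham loops of 21 and 55 PETs and 3 MCAO loops of 10, 33 and 51 PETs, and Dlx6 lay at the same anchors in 1 and 2 of these. The far anchors of the shared contacts lay in the bodies of Slc25a13 (55 and 33 PETs, 765 kb and 789 kb) and Dync1i1 (21 and 10 PETs, 877 kb and 883 kb). The MCAO loop of 614 kb with 51 PETs had no sham partner, and its near anchor also held Sdhaf3. No loop was listed at Dlx1, Dlx2 and Dlx4.

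Pax and Lhx genes had few loops. Pax6, a factor of radial glia and of the eye, had 1 loop, in MCAO, over 543 kb with 25 PETs to Wt1. The near anchor of this loop also held Elp4. Pax1 and Pax9, which act in the vertebral column, each had a contact in both lists, with 45 and 17 PETs for Pax1 and 17 and 11 for Pax9. The Pax9 contact, of 852 kb in sham and 856 kb in MCAO, reached Foxa1 and Ttc6. A loop of 675 kb with 24 PETs from Pax1 to Foxa2, a forkhead factor, was listed in MCAO alone. Lhx2, a factor of cortical progenitors, had 2 loops per list of 10 to 16 PETs, none shared, and all 4 far anchors lay in the body of Dennd1a. Lhx9 had sham loops of 10 and 10 PETs and MCAO loops of 16 and 28 PETs, none shared. Lhx6, which marks cortical interneurons, had no loop.

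Nkx genes had 11 sham and 13 MCAO loops at 6 of 14 genes. Nkx2-2, a factor of oligodendrocyte precursors, had sham loops of 10, 16, 24 and 45 PETs and MCAO loops of 10, 20, 23, 30 and 31 PETs. Its contact to Kiz held 16 PETs over 329 kb in sham and 31 over 353 kb in MCAO, and the one to Ralgapa2 held 24 and 23. Nkx3-2, a skeletal factor whose anchor mostly also held Bod1l, had sham loops of 10 and 57 PETs and MCAO loops of 17, 28 and 77 PETs. The loops of 57 and 77 PETs lay within 1 anchor width of each other, although the nearest partner of each was another loop. Nkx6-1, which acts in motor neurons and pancreatic beta cells, had a contact of 48 PETs over 745 kb in sham and 61 over 721 kb in MCAO. Nkx2-1, which specifies ventral forebrain, had loops in MCAO alone, the stronger of 633 kb with 32 PETs to Brms1l.

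Every gene from Irx1 to Irx6 had a loop, with 2 in sham and 7 in MCAO, and so had Six2 to Six6. Six3, a factor of the anterior forebrain and eye, and Six2, a factor of kidney progenitors, are neighbours on chromosome 17. Six2 had 4 sham and 2 MCAO loops, a difference of -2 (-5.48 to 3.33), an excess in sham that Nkx2-4 (2 sham loops and 0 MCAO loops) matched. The Nkx2-4 sham loop of 47 PETs had a partner of 10 PETs in MCAO that did not lie at a homeobox gene end. Sham loops with Six2 and Six3 at the same anchor ended in the body of Camkmt, and a sham loop of Six2 alone ended in the body of Srbd1. The contact of Six3 held 41 PETs in sham and 20 in MCAO, and that of Six2 held 41 and 15. An MCAO loop of 797 kb with 42 PETs at both genes had no sham partner. Of the Irx loops, the strongest was an MCAO loop of 818 kb with 28 PETs from Irx5 into the body of Fto.

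The partners of homeobox loops were mostly places without a gene end. Of loops with a homeobox gene at 1 anchor alone, 45 of 60 in sham (75.0%, 62.1 to 85.3) and 59 of 84 in MCAO (70.2%, 59.3 to 79.7) had no protein-coding gene end within 2.5 kb of the far anchor. Of these far anchors, 15 in sham and 14 in MCAO lay in the body of a gene, and the nearest gene end was a median of 81.6 kb and 91.5 kb away. Loops with a gene end at 1 anchor made up 70.3% (57.6 to 81.1) and 67.0% (56.2 to 76.7) of homeobox loops, beside 65.0% and 65.7% of all gene-end loops, so this property was near the background. Partner gene ends were 23 in sham and 39 in MCAO, 51 in either list. The 11 found in both lists included 4930453N24Rik, Cd247, Creg1, D130040H23Rik, Foxa1, Kiz, Rab11fip2, Ralgapa2, Ttc6 and Zfp654. The loops to Cd247, Creg1 and D130040H23Rik had no partner in the other list, so a partner gene in both lists is not always a shared loop. The like share over all gene-end loops was not computed, so 11 of 51 cannot be set beside a background.

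A shared loop is one with a partner in the other list whose anchor midpoints both lie within 1 anchor width. In sham 34 of 64 homeobox loops (53.1%, 40.2 to 65.7) were shared, beside 36.4% of all gene-end loops. In MCAO 38 of 88 (43.2%, 32.7 to 54.2) were shared, beside 29.9%. Shared loops had more PETs than the others, at a median of 34.5 against 12 in sham and 24 against 15 in MCAO, and wider anchors, at 60.4 kb against 30.3 kb and 46.7 kb against 30.6 kb. Within loops of 10 to 14 PETs, 13.6% of homeobox loops were shared in sham and 20.0% in MCAO, beside 21.6% and 17.5% of other gene-end loops. Within loops of 15 to 29 PETs these values were 59.1% and 46.3%, beside 47.2% and 37.6%. Within loops of 30 or more PETs they were 90.0% and 76.5%, beside 78.6% and 64.9%. Wider anchors allow a larger distance under the rule, and the part of width in the higher shares was not tested.

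The same contact could be compared in both lists for 29 pairs of loops, each the other's nearest and both at a homeobox gene. Scaled PETs were higher in MCAO in 12 of the 29 (41.4%, 23.5 to 61.1) and lower in 17, beside 42.6% higher over 2296 pairs at all gene ends. The median log2 ratio, MCAO over sham, was -0.37 (quartiles -1.24 and 0.47), beside -0.17 over all pairs. At least 2-fold higher were 3 pairs (10.3%, background 8.10%), and at least 2-fold lower were 8 (27.6%, background 17.9%). The counting interval of the fold excluded 1 in 3 higher pairs (10.3%) and 10 lower pairs (34.5%), beside 9.63% and 20.3% of all gene-end pairs. Of the 29 pairs, 8 had a further candidate partner on either side, and the nearest was used. The 3 pairs at least 2-fold higher were 1 contact each of Nkx3-2, Emx2 and Pou3f3. Contacts at least 2-fold lower stood at Pou4f1, Pou1f1, Six2, Six3, Pax1, Emx2, Dlx5 and Nkx3-2.

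The PET ratio moved with the width of the anchors. Over the 29 pairs, which share genes and anchors, the ratio of PETs and the ratio of summed anchor widths had a Spearman rho of 0.95, and over all gene-end pairs it was 0.88. At Nkx3-2, the contact of 638 kb in sham and 647 kb in MCAO held 10 and 77 PETs, 6.64-fold higher in MCAO after scaling (3.42 to 14.4), with summed anchors of 18.4 kb and 187 kb. This value rests on taking the nearest partner: set against the sham loop of 57 PETs, which also lay within 1 anchor width, the MCAO loop of 77 PETs stood at 1.17-fold (0.817 to 1.67). For the nearest pair the density, the authors' scaled PETs per kb of anchor, was lower in MCAO by contrast, with a log2 ratio of -0.61. The other Nkx3-2 contact held 57 and 28 PETs, 0.424-fold (0.259 to 0.677), with anchors of 168 kb and 119 kb.

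The Pou3f3 contact of 16 and 55 PETs stood at 2.96-fold (1.67 to 5.54), with anchors of 32.2 kb and 68.9 kb and a log2 density ratio of 0.47. For the strongest Emx2 contact the log2 density ratio was 0.79, so both measures were higher in MCAO at these 2 contacts. Among the lower contacts, Pax1 stood at 0.326-fold (0.175 to 0.581) and Six3 at 0.421-fold (0.234 to 0.735), while their log2 density ratios were 0.51 and 0.50. Pou1f1 stood at 0.312-fold (0.18 to 0.522), Six2 at 0.316-fold (0.162 to 0.582) and Pou4f1 at 0.287-fold (0.141 to 0.55). The sign of the PET ratio and of the density ratio differed in 8 of the 29 pairs. The part of anchor width in the PET differences was not tested.

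**Figure D4:**
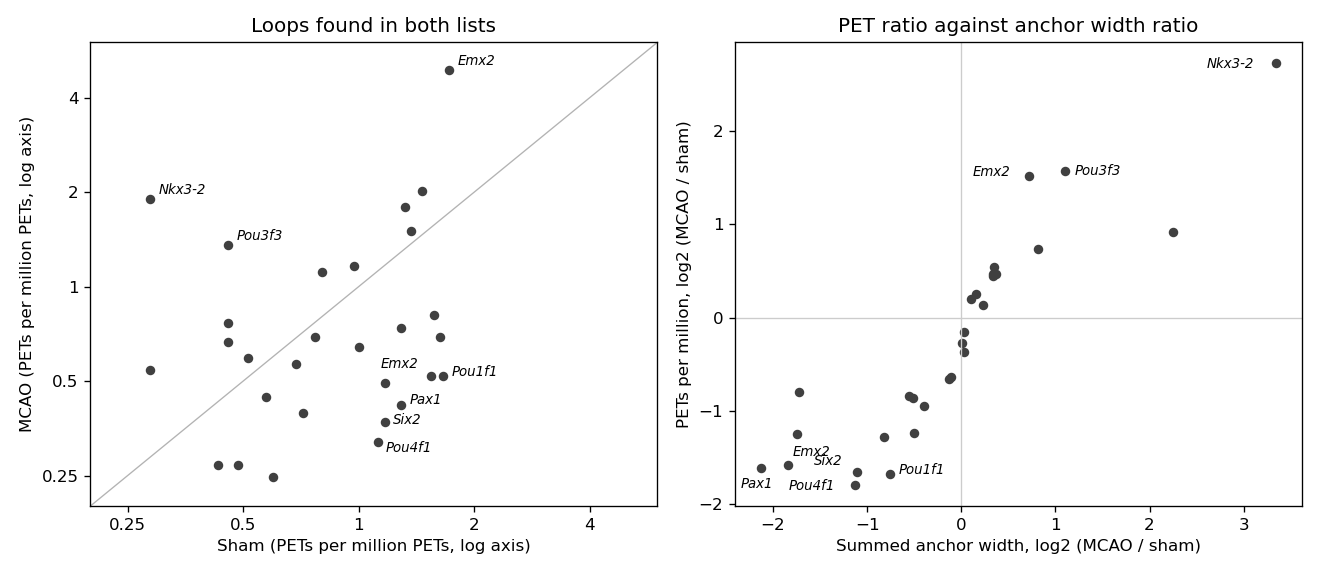
The 29 homeobox contacts found in both lists. Left, scaled PETs (per 1000000 PETs) in MCAO against sham on log axes with the line of equal values; right, the log2 ratio of scaled PETs against the log2 ratio of summed anchor width, where the points rise together (Spearman rho 0.95). Contacts with a log2 ratio of at least 1.5 in size carry the gene's name.

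Members with known roles in the developing or adult telencephalon (21 genes, among them Emx2, Pax6, Lhx2, Dlx5, Dlx6, Meis1, Meis2, Pou3f2 and Pou3f3) were set beside the other 58, which also hold genes with forebrain roles such as Nkx2-1 and Six3. A loop was listed at 14 of the 21 (66.7%, 43 to 85.4) and at 35 of the 58 (60.3%). The forebrain genes held 33 sham and 42 MCAO loops, and the others 31 and 46. At least 4 loops were found at 9 of 14 forebrain genes with a loop and at 7 of 35 others. The median span of forebrain loops was 744 kb in sham and 709 kb in MCAO, beside 420 kb and 473 kb for the others. More than 1 Mb was spanned by 9 of 33 (27.3%, 13.3 to 45.5) and 14 of 42 (33.3%, 19.6 to 49.5) forebrain loops, beside 1 of 31 (3.23%) and 1 of 46 (2.17%). Shared loops made up 60.6% and 52.4% of forebrain loops, beside 45.2% and 34.8%. Most of these long forebrain loops belonged to Pou3f2, Pou3f3, Meis1 and Meis2, and the other long loop of each list to Irx2.

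Long spans and several loops per gene also stood in related lists. Of the 39 Hox genes, which lie in clusters, 33 (84.6%) had a loop, and neighbours shared these, so the distinct loops were 10 in sham and 16 in MCAO. Hox loops had median spans of 598 kb and 486 kb and median anchors of 47.4 kb and 29.2 kb, 8 of 10 and 8 of 16 were shared, and 39.4% of Hox genes with a loop had at least 4. Of 61 other homeobox genes 39 (63.9%) had a loop, with 43 sham and 76 MCAO loops, a ratio of 1.77 (1.2 to 2.63), and 5 of them had at least 3 more loops in MCAO. Their median spans were 594 kb and 529 kb, their median PETs 24 and 16.5, 58.1% and 35.5% of the loops were shared, and 30.8% of the genes with a loop had at least 4. Of 29 autosomal genes of the Polycomb complexes 25 (86.2%) had a loop, with 27 loops in sham and 31 in MCAO, at median spans of 288 kb and 253 kb.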

How the data were processed

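Frozen cortex was processed for Hi-C with Arima reagents, per the labels' protocols. HiC-Pro and Bowtie2 were used with mm10, per the submitters' processing notes; no loop caller is given in the sources used here. Deposited lists hold unscaled counts, of PETs for each loop and reads for each anchor. The authors' signal value called density is PETs per kb of anchor per 1000000 PETs, and gave the library totals. The authors' deposited ratio, p-value and FDR per loop (FDR at most 0.05) were used at most to rank loops within a list.

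Gene positions came from RefSeq (GRCm38.p6), without strand, and promoters from a RefSeq table with strand (57 of 79 genes matched). Spans are distances between anchor midpoints. A partner loop had both midpoints within 1 anchor width, taking the widest of the 4 anchors. Shares have exact Clopper-Pearson intervals, and ratios exact binomial intervals. Since PETs may not be independent molecules, intervals cover counting error only. Genes are named with values where they had at least 4 loops, a difference of at least 3, a loop to another homeobox gene or the strongest loop of a list; others stand within their family. A few such genes are not reported here and are left out of the plots per gene, but stay in the counts. Beyond this rule, partners of further loops were named after their values were seen. The homeobox genes and the lists were chosen with earlier results of these data known. Divisions by PETs and by gene density, and other pairings of shared loops were chosen after seeing the data. Alternatives covered the window at gene ends, the minimum of PETs, depth matching, the better part of each list by p-value, the rule for shared loops and the scaling of PETs. Matching was tested on simulated loops with small shifts and anchors of a fixed width, narrower than the median anchor here. Wide anchors and the choice among several candidate partners were not covered by it. Python 3.11.15, numpy 2.4.6, pandas 2.3.3, scipy 1.17.1 and matplotlib 3.10.9 were used.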

Additional observations from a re-analysis of the deposited data

How the results depend on the processing

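Of 60 alternative values for the main results, 51 stayed within the spread or within 1.5 times the value reported. With gene ends widened to 10 kb, partner gene ends numbered 78 in place of 51. A gene with at least 3 more loops in MCAO appeared without a window (1 gene, Meis1, 1 and 4 loops) and with at least 15 PETs (1 gene, Pou3f2, 2 and 5 loops). Loops joining homeobox genes numbered 2 in place of 5 with at least 15 PETs, with the depth-matched minimum and among the loops on the better side of each list's median p-value; these were the sham loops. The share of non-forebrain genes with a loop was 36.2% (24 to 49.9) with at least 15 PETs and 39.7% (27 to 53.4) among those better loops, in place of 60.3%. For forebrain genes these shares were 61.9% (38.4 to 81.9) and 57.1% (34 to 78.2), in place of 66.7%. The groups thus stood further apart than in the main result, with overlapping intervals. Like shares over all genes were not computed. The shared part of MCAO loops was 29.5% when partners had to lie within a shorter distance (0.5 of an anchor width), in place of 43.2%. Under this rule the share of all gene-end MCAO loops was 21.6%. In sham it was 42.2% of homeobox loops, beside 27.1% of all gene-end loops. Among 96 values for single genes, the Meis1 difference took the opposite sign with 10 kb (-1) and with any part of the gene (-2). The ratio of loops excluded 1 with 10 kb (1.37, 1.01 to 1.86) and with no window (1.45, 1.02 to 2.06). Both intervals held 1.24, the ratio of all gene-end loops with the window of the main result. The ratio of all gene-end loops was not computed with 10 kb or with no window. No paired analysis was possible because each group has 1 list. Both lists start at 10 PETs, which limits every statement on a loop found once.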
